A study of Mus musculus with 24 samples.

Results

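The 100 genes described here had a larger 24-h rhythm in the epididymal fat of mice with a disabled central clock than in that of control mice. They were chosen by measured values out of 15607 genes tested. A 24-h cosine was fitted to the 4 time means of each genotype, and the genes with the largest mutant minus control difference in rhythm size were taken, leaving out Pdk4, Aacs, Bhlhe41 and Zbtb16. The size of a rhythm is the log2 peak-to-trough of the fitted cosine, so a size of 1 is a 2-fold change between trough and peak. The tissue, eWAT, is the white fat pad attached to the epididymis, and 24 mice gave 1 Affymetrix array each. The mutants, MUT, are Syt10-Cre/Cre x Bmal1-flox/- and carry a deletion of the clock gene Bmal1, listed as Arntl on the array, in the cells where the Syt10 promoter drives Cre, among them those of the suprachiasmatic nucleus (SCN), the brain's pacemaker. The controls, CON, are Syt10-Cre/Cre x Bmal1-+/-, so both genotypes carry Syt10-Cre on both alleles and have lost at least 1 copy of Bmal1. Mice spent 2 weeks in a light-dark cycle and were then moved to darkness. Tissue was taken on day 2 of darkness at CT (circadian time, in h) 1, 7, 13 or 19, with 3 mice for each genotype and time. Ages were not given in the sources used here.

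In mammals the SCN sets the daily timing of clocks in other tissues through nerves, hormones, feeding and body temperature. Fat holds many cell types beside the adipocyte, among them macrophages, mast cells, fibroblasts, endothelium and the mesothelium that covers the pad. Resident leukocytes and stromal cells have clocks of their own, and leukocyte numbers in tissues are known to change over the day. In bulk tissue a change in the number of cells of a type and a change in RNA per cell cannot be told apart.

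Array medians lay between 7.80 and 7.88 (log2) in MUT and between 7.86 and 7.94 in CON. A source label names mediobasal hypothalamus, whereas titles and protocol name eWAT. All 10 adipocyte markers passed the signal filter, against 7 of 13 neuronal and hypothalamic markers. The Arntl group means in fat ran between 8.19 and 9.52 in MUT and between 8.07 and 9.54 in CON; the deletion is in other cells, so these levels do not check the genotype. With 3 mice per group, p-values measure only the spread between these mice.

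The members moved together on single arrays. For each array the 72 members that peaked at CT12 to CT24 in MUT were set against the mean of the other 2 mice of the group. The median deviation was 0.33 for the second MUT mouse at CT13, with 58 of 72 members above, and 0.32 for the third CON mouse at CT13, with 65 of 72 above. The first MUT mouse at CT13 and the third at CT19 lay at -0.33 and -0.27, with 7 and 8 of 72 above. Over all genes the same deviation stayed between -0.03 and 0.04 on every array. Normalization of arrays to each other keeps that value small, so it is not a background for a set chosen by peak time. The members shared these deviations, so their counts are not counts of independent genes.

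The mesothelial markers were highest on some of the same arrays as these members. Of 10 mesothelial markers, all tested, none was a member, 1 had the larger size in MUT, and their median deviation was 0.01, -0.19, 0.27 and 0.57 over the 4 times in MUT and -0.24, -0.69, 0.05 and 0.24 in CON. The 3 MUT arrays with the highest mesothelial score also had the 3 highest medians of the members peaking at CT18 to CT24. They were the second mouse at CT13 and the first and second at CT19. Among these 3, the second mouse at CT13 was highest for the markers (0.89) and lowest for the members (0.20). The 2 highest CON arrays were likewise shared (the third mouse at CT13 and the first at CT19). The third highest CON array was not: it was the third mouse at CT19 for the markers and the second at CT1 for the members. The numbers of arrays compared, 3 and 2, differed between genotypes. Members grouped by a MUT peak at CT18 to CT24 are high on MUT arrays at CT19 by that grouping. The summed linear signal of the 10 markers ran between 4360 and 13032 per array in MUT and between 3986 and 9012 in CON, and none of the 10 was at 0: Msln averaged 9.78 with a lowest value of 8.73, and Upk3b 10.92 with a lowest value of 10.04. The sum for the 14 macrophage markers ran between 7865 and 12061 in MUT and between 7394 and 11771 in CON. The part of either cell type in the members' values was not tested.

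The choice was also repeated without both CT13 mice of the largest shared deviation, an alternative chosen after seeing the data. Then 64 of the 100 members were chosen again. Leaving out any single array kept between 72 and 89 members, the fewest without the second MUT mouse at CT13.

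The members were concentrated in the later part of the circadian day. In MUT, 12 members peaked between CT0 and CT6, 16 between CT6 and CT12, 43 between CT12 and CT18 and 29 between CT18 and CT24, whereas the shares over all genes were 28.1%, 20.4%, 19.7% and 31.9%. The median size of the members was 0.61 in MUT and 0.19 in CON, and the median difference was 0.40, with a range between 0.32 and 1.96. Over all genes the medians were 0.13 in MUT and 0.18 in CON, with a difference of -0.05, and 33.7% of all genes had the larger size in MUT. These sizes are what chose the members and are given as a description. Of the members, 87 were protein-coding, 4 were annotated as microRNA genes, 3 as immunoglobulin V segments, 2 as pseudogenes, 2 as small nucleolar RNAs and 1 as a long noncoding RNA, and 1 had no RefSeq match. Array probe sets annotated to a microRNA or small nucleolar RNA gene may measure longer transcripts of the locus rather than the mature small RNA.

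**Figure D1:**
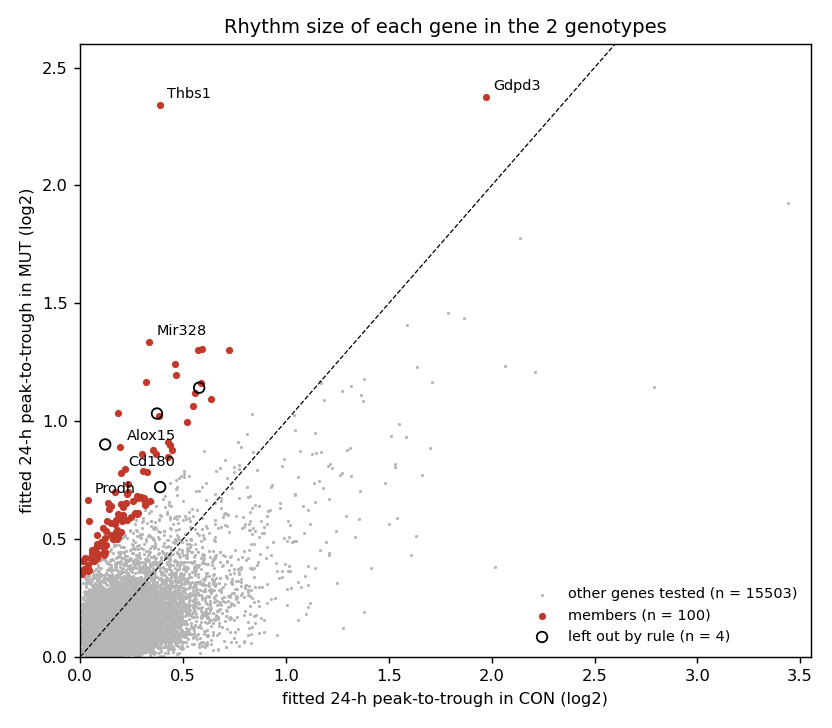
Fitted 24-h peak-to-trough (log2) of every gene tested, MUT on the vertical axis and CON on the horizontal axis, with the 100 members in red, the 4 genes left out by the rule as open circles and the line of equal size dashed. Thbs1 (2.34 in MUT and 0.39 in CON) stands farthest above the line, and Gdpd3 (2.38 in MUT and 1.97 in CON) is large in both genotypes.

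At the limit of the rule, Glul, Ptprc and Blnk lay just inside with differences of 0.321, 0.321 and 0.318, and Pde8a, Phf11d and Bank1 just outside with 0.317, 0.317 and 0.315. The limit falls in a continuous range of values. Among the genes left out by the rule, Zbtb16, a glucocorticoid-responsive transcription factor, had a size of 0.90 in MUT and 0.12 in CON. Pdk4, a kinase that inhibits pyruvate dehydrogenase, had 1.03 in MUT and 0.37 in CON, and Aacs, which activates acetoacetate for lipid synthesis, had 1.14 in MUT and 0.58 in CON. Bhlhe41, a clock repressor, had 0.72 in MUT and 0.39 in CON. By size alone they would have ranked 6, 11, 18 and 91.

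Of the members, 5 belong to a family of large GTPases that interferons induce and that act against pathogens inside cells: the guanylate-binding proteins Gbp4, Gbp5 and Gbp7 and the immunity-related GTPases Igtp and Irgm2. Igtp and Irgm2 lie next to each other, as do Gbp5 and Gbp7, within 1 Mb. Their promoters are shown because these 4 members had MUT peaks between CT17.3 and CT18.2 and their windows hold both motifs through which interferons are known to act; the family was picked out after its values were seen. The windows come from RefSeq (GRCm38.p6), all on the plus strand, and cover 250 bases before and 50 after the annotated start. Capitals mark matches to the interferon-stimulated repeat, which is GAAA and GAAA spaced by 2 bases, and to the STAT palindrome TTCNNNGAA, on either strand.
Igtp, chr11:58199306-58199605: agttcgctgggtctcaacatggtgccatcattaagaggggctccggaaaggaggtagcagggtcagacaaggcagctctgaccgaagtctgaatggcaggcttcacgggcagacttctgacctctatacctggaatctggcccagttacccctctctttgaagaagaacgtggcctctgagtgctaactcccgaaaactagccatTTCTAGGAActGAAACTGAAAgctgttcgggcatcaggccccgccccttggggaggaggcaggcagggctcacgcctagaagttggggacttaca
Irgm2, chr11:58214727-58215026: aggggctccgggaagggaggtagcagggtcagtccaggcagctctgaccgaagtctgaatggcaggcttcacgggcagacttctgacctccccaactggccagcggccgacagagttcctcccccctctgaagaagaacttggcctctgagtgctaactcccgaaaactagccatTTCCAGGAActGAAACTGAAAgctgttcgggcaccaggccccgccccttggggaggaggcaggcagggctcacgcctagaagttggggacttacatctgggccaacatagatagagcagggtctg
Gbp5, chr3:142496684-142496983: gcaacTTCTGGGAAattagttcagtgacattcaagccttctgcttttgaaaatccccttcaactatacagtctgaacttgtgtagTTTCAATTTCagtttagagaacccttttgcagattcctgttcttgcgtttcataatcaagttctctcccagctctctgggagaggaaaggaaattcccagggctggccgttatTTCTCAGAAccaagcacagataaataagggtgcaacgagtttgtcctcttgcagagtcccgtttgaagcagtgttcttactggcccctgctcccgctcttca
Gbp7, chr3:142530086-142530385: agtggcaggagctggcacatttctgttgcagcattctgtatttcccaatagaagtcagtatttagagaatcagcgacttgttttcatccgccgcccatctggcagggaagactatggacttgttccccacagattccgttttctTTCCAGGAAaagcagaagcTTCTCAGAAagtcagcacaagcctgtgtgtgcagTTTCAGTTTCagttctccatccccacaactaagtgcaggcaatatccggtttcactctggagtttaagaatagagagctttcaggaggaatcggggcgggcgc

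The Igtp and Irgm2 windows share an unbroken run of 61 bases, and in both the palindrome ends 2 bases before the repeat. The longest run that either shares with Gbp5 or Gbp7 is 10 bases. RefSeq held 78 windows for 67 members. The background of 32851 windows covers 27025 RefSeq genes and was not limited to the 15607 tested in fat. In all, 10 motifs were searched for, and no difference in share was tested. The interferon-stimulated repeat was found in 14.1% of the members' windows and in 3.44% of all 32851 windows, the STAT palindrome in 16.7% and 8.30%, and both together in 5.13% and 0.454%, the 4 windows shown being the only ones among the members with both. The E-box CACGTG, which clock activators bind, was found in 2 members' windows (2.56%, against 7.15% of all windows). The REV-ERB and ROR element TAGGTCA was found in 6 (7.69%, against 2.61%): those of Fabp7, Fbln5, Glul, Itih4, Ndufa11 and Plek. The glucocorticoid receptor palindrome was found in 7.69% of the members' windows and 6.85% of all windows. AP-1 sites were found in 8.97% and 7.81%, and NF-kB sites in 3.85% and 1.68%. D-box, PU.1 and cAMP response elements were each in 2.56% of the members' windows, against 2.32%, 3.20% and 1.79% of all windows. A match of letters is a description and not evidence of binding.

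In MUT the signals of these GTPases were highest at CT19 and in CON they varied from mouse to mouse. Igtp read 8.98, 8.60 and 8.11 at CT1, 8.73, 8.56 and 8.61 at CT7, 8.92, 8.66 and 8.85 at CT13 and 9.31, 9.09 and 9.28 at CT19 in MUT. In CON it read 8.16, 8.84 and 8.58 at CT1, 9.44, 8.64 and 8.33 at CT7, 8.54, 8.23 and 8.42 at CT13 and 8.75, 9.41 and 8.47 at CT19. All 3 MUT mice at CT19 lay above the other 9 MUT mice, whereas in CON 1 mouse at CT7 and 1 at CT19 stood alone above the rest. Gbp4 read 9.93, 9.77 and 9.72 at CT19 in MUT, against 8.81, 9.22 and 8.17 at CT19 in CON. The size for Gbp4 was 1.09 in MUT and 0.63 in CON, and for Irgm2 it was 0.65 in MUT and 0.22 in CON.

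Of the 7 tested GTPases of the family that were not members, 3 had the larger size in MUT, beside 33.7% of all genes, and 5 peaked between CT15 and CT21 in MUT. Their median difference in size was -0.03, with a range between -0.20 and 0.24. Gbp9 (0.60 in MUT and 0.39 in CON) and Iigp1 (0.77 in MUT and 0.53 in CON) moved in the same phase but were not members. Among other interferon-induced genes, none of the 8 tested genes of a list of interferon-response genes was a member, and their median size was 0.14 in MUT and 0.17 in CON. When the choice was repeated from 2 replicates of each group, as described below, Gbp5, Gbp7 and Irgm2 were chosen in none of 3 rounds and Igtp and Gbp4 in 2.

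**Figure D2:**
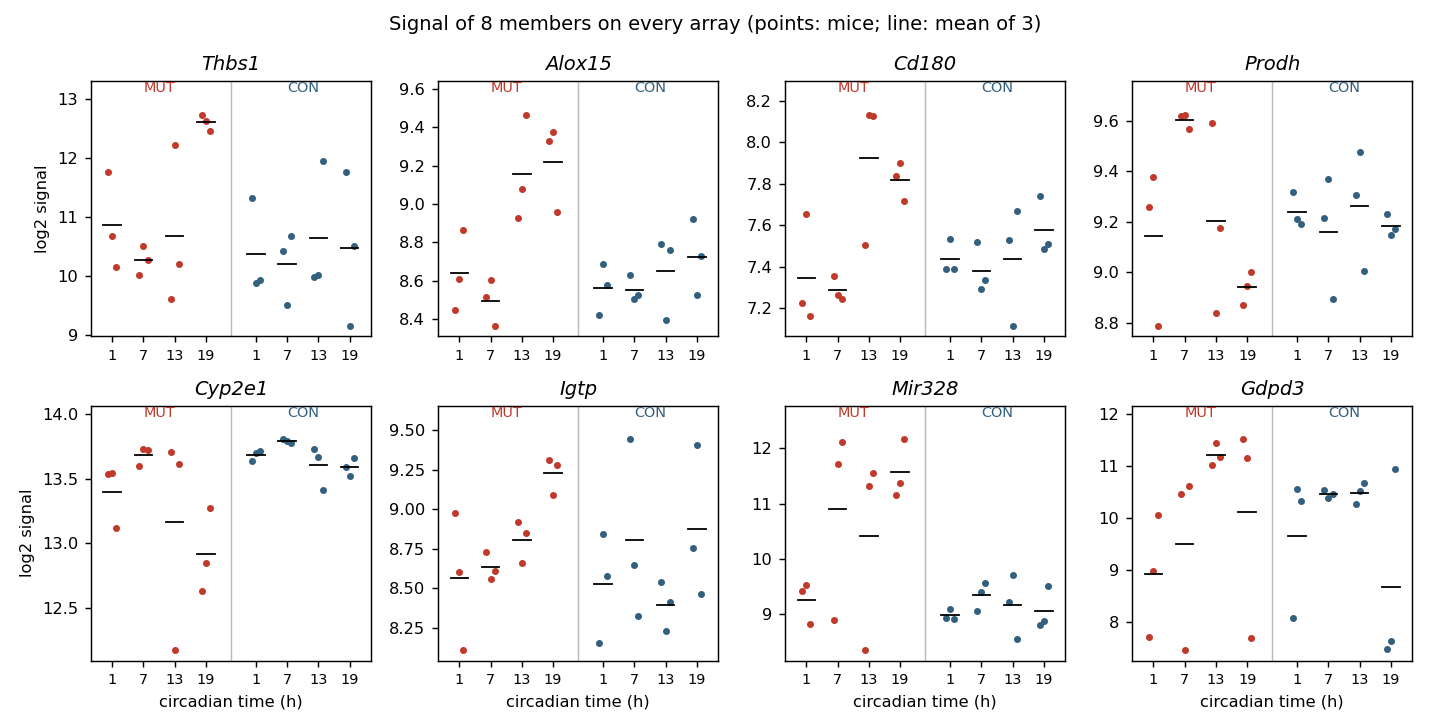
Log2 signal of 8 members on each of the 24 arrays at CT1, CT7, CT13 and CT19, MUT left and CON right in each panel; points are mice and lines are means of 3. Thbs1, Alox15, Cd180 and Igtp are high at CT13 or CT19 in MUT, Prodh and Cyp2e1 are low at CT19 in MUT, and Mir328 and Gdpd3 switch between a high and a low level from mouse to mouse.

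Leukocyte genes made up 23 members, sorted by known function after the members were known. The share of such genes among all genes tested was not counted, nor that of the matrix and enzyme groups below. In MUT 22 of the 23 peaked between CT14 and CT21, where 30.5% of all genes peaked. Of all 100 members, 72 peaked at CT12 to CT24. The median size of the 23 was 0.65 in MUT and 0.20 in CON. Relative to the mean of the genotype, the median leukocyte member stood at -0.22 ± 0.04, -0.28 ± 0.02, 0.14 ± 0.17 and 0.24 ± 0.14 at CT1, CT7, CT13 and CT19 in MUT (log2, mean ± SD over 3 mice), and at -0.03 ± 0.10, -0.10 ± 0.09, 0.04 ± 0.25 and 0.11 ± 0.17 in CON. The group was low at both earlier times in MUT with little spread between mice. In CON the same order of times was seen within a spread as large as the differences. The rule chose these genes by a larger rhythm in MUT than in CON on the same arrays. The contrast between the genotypes therefore follows from the choice and is a description.

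For each member named here, times apart in MUT and overlapping in CON are a description, because the rule used these values. The highest and lowest times did not overlap in 38.7% of all genes in MUT and in 55.1% in CON. Alox15, a lipoxygenase of resident peritoneal and alternatively activated macrophages, was higher at CT13 and CT19 than at CT1 and CT7 in MUT. It read 8.45, 8.61 and 8.86 at CT1, 8.51, 8.61 and 8.37 at CT7, 8.93, 9.08 and 9.46 at CT13 and 9.33, 9.38 and 8.96 at CT19 in MUT. In CON it read 8.42, 8.69 and 8.58 at CT1, 8.63, 8.51 and 8.53 at CT7, 8.79, 8.40 and 8.76 at CT13 and 8.92, 8.52 and 8.73 at CT19. All 6 MUT mice at CT13 and CT19 lay above all other MUT mice and above all 12 CON mice, the closest being a MUT mouse at 8.93 and a CON mouse at 8.92. The fitted size was 0.89 in MUT and 0.19 in CON, with peaks at CT16.6 in MUT and CT17.2 in CON.

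Cd180, a Toll-like receptor relative of B cells and macrophages, read 7.51, 8.13 and 8.13 at CT13 and 7.84, 7.9 and 7.72 at CT19 in MUT, against 7.53, 7.12 and 7.67 at CT13 and 7.74, 7.49 and 7.51 at CT19 in CON. At CT7 it read 7.36, 7.26 and 7.25 in MUT and 7.52, 7.29 and 7.33 in CON. The MUT values at CT7 did not overlap those at CT13 or CT19. Ly96, the co-receptor of Toll-like receptor 4, peaked at CT19.9 in MUT, with a size of 0.86 in MUT and 0.30 in CON. Its MUT values were 8.89, 9.40 and 9.37 at CT7 and 9.89, 10.38 and 9.91 at CT19, against 9.25, 9.13 and 9.22 at CT7 and 9.51, 9.23 and 9.76 at CT19 in CON, so the times did not overlap in MUT and overlapped in CON through 1 mouse at CT19.

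Mmp12, an elastase of macrophages, and Gpnmb, a glycoprotein of lipid-laden macrophages, were highest in a single MUT mouse. Mmp12 read 8.67, 10.37 and 7.92 at CT13 and 9.42, 9.65 and 8.84 at CT19 in MUT, against 8.55, 8.03 and 9.30 at CT13 and 8.76, 8.28 and 7.94 at CT19 in CON. Gpnmb read 9.32, 11.10 and 9.03 at CT13 in MUT and 9.46, 9.05 and 10.03 at CT13 in CON. The second MUT mouse and the third CON mouse at CT13 were the high ones for both genes. Dock8, a guanine nucleotide exchange factor needed for leukocyte movement, had the same 2 mice highest at CT13, at 10.60 in MUT and 10 in CON.

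Cpa3, a mast cell protease, read 8.07, 7.89 and 8.42 at CT13 and 8.63, 8.41 and 7.52 at CT19 in MUT, against 7.72, 7.44 and 8.52 at CT13 and 8.04, 7.66 and 7.81 at CT19 in CON. Its MUT values at CT1 and CT7, between 6.99 and 7.58, overlapped those at CT19 through 1 mouse. Of 3 mast cell markers tested, Cpa3 was the only member. Tpsb2 had a size of 0.50 in MUT and 0.51 in CON, and Kit 0.18 in MUT and 0.16 in CON. Lilrb4a, an inhibitory receptor of myeloid cells, had a size of 1.02 in MUT and 0.38 in CON. Cybb and Cyba encode both membrane subunits of the phagocyte NADPH oxidase, and their sizes were 0.85 and 0.53 in MUT and 0.43 and 0.18 in CON.

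The macrophage markers were a separate list. Of these 14 markers, all tested, Cd14 was the only member, and it peaked at CT9.1 in MUT, away from the other leukocyte members. The list had a median size of 0.39 in MUT and 0.36 in CON, and 7 of the 14 had the larger size in MUT. Its median deviation was -0.07, -0.14, 0.18 and 0.06 over the 4 times in MUT and -0.06, -0.18, 0.13 and 0.11 in CON. Among 6 markers of alternatively activated macrophages, Alox15 was the only gene with the larger size in MUT. None of 4 neutrophil markers and none of 5 B and plasma cell markers tested had the larger size in MUT. Of the dendritic cell markers 1 of 6 did, and of the T and NK cell markers 4 of 7.

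Matrix and secreted proteins made up 11 members, of which 9 peaked between CT14 and CT21 in MUT, beside 30.5% of all genes. Thbs1, the gene of the matrix glycoprotein thrombospondin 1, which binds cell-surface receptors and activates latent TGF-beta, had the largest difference of all genes. It read 11.75, 10.68 and 10.16 at CT1, 10.02, 10.51 and 10.28 at CT7, 9.61, 12.21 and 10.20 at CT13 and 12.73, 12.63 and 12.45 at CT19 in MUT. In CON it read 11.32, 9.88 and 9.93 at CT1, 10.42, 9.52 and 10.68 at CT7, 9.98, 10.01 and 11.96 at CT13 and 11.76, 9.16 and 10.51 at CT19. The 3 MUT mice at CT19 were the highest of all 24 and differed little, whereas in CON a single mouse at CT1, at CT13 and at CT19 was high. The spread between mice of a group was 0.91 (SD, log2), so the size of 2.34 in MUT had a standard error of 0.74, and that of 0.39 in CON was within it.

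Thbs2, a related thrombospondin, had a size of 1.06 in MUT and 0.55 in CON, with an SD between mice of 0.62. Prg4, the lubricin of joint and serosal surfaces, read 9.42, 9.92 and 10.33 at CT13 and 10.30, 10.23 and 9.51 at CT19 in MUT, against 8.95, 8.86 and 9.66 at CT13 and 9.72, 8.71 and 9.47 at CT19 in CON. At CT1 and CT7 its values lay between 8.81 and 9.44 in MUT and between 8.57 and 9.14 in CON. Both genotypes peaked at CT16.8 in MUT and CT16.7 in CON, so for Prg4 the phase was shared and the size was 1.30 in MUT and 0.57 in CON.

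Postn, the matrix protein periostin, had sizes of 0.64 in MUT and 0.21 in CON, and Fbln5, a protein of elastic fibres, had 0.63 in MUT and 0.14 in CON. Saa3, an acute-phase apolipoprotein made by adipose tissue, had 0.55 in MUT and 0.11 in CON. Of the list of extracellular matrix genes, 3 of 18 tested were members (Thbs1, Mmp12 and Postn), 6 of the 18 had the larger size in MUT, and the median size was 0.29 in MUT and 0.41 in CON. C7, a component of the complement membrane attack complex, ran the other way round the day and peaked at CT7.3 in MUT. C7 read 10.08, 10.69 and 9.76 at CT7 and 8.73, 9.02 and 9.68 at CT19 in MUT. In CON it read 9.90, 10.20 and 10.06 at CT7 and 9.78, 10.27 and 10.43 at CT19. The MUT values were apart between these times, the highest and lowest in MUT, and the CON values overlapped. The peaks of the genotypes lay 8.7 h apart, so CON was not compared at its own extremes. The highest and lowest MUT times were apart in 38.7% of all genes, so this is a description.

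Metabolic enzymes, likewise sorted after the members were known, made up 14 members. Of these, 8 peaked between CT4 and CT11 in MUT and 3 between CT14 and CT21, where 26.6% and 30.5% of all genes peaked. Prodh, the proline dehydrogenase of mitochondria, read 9.26, 9.38 and 8.79 at CT1, 9.62, 9.62 and 9.57 at CT7, 9.59, 8.84 and 9.18 at CT13 and 8.87, 8.95 and 9.002 at CT19 in MUT. In CON it read 9.32, 9.21 and 9.19 at CT1, 9.21, 9.37 and 8.89 at CT7, 9.31, 9.48 and 9.01 at CT13 and 9.23, 9.15 and 9.17 at CT19. The MUT values at CT7 all lay above those at CT19, and the CON means of the 4 times stayed between 9.16 and 9.26. Its size was 0.67 in MUT and 0.04 in CON.

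Cyp2e1, a cytochrome P450 that oxidises ethanol and acetone, read 13.60, 13.73 and 13.72 at CT7 and 12.63, 12.85 and 13.27 at CT19 in MUT, against 13.80, 13.79 and 13.78 at CT7 and 13.59, 13.52 and 13.66 at CT19 in CON. The order of the times was the same in both genotypes, with peaks at CT5.9 in MUT and CT5.6 in CON. A single MUT mouse at CT13 read 12.17, beside 13.71 and 13.61. Gsta3, a glutathione transferase, had sizes of 0.91 in MUT and 0.43 in CON, Fmo1, a flavin monooxygenase, 0.52 in MUT and 0.15 in CON, and Glul, glutamine synthetase, 0.50 in MUT and 0.18 in CON.

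Gdpd3, a lysophospholipase D, had the largest MUT size of all members, 2.38, beside 1.97 in CON. Its signal took a low or a high level from mouse to mouse: 10.46, 7.46 and 10.62 at CT7 and 11.52, 11.16 and 7.69 at CT19 in MUT, against 10.54, 10.40 and 10.47 at CT7 and 7.47, 7.63 and 10.94 at CT19 in CON. Mice of the same group thus differed by more than the fitted rhythm, and the SD between mice was 1.36, the highest of all genes tested. Mir328, annotated to a microRNA gene, did the same in MUT only, with 8.89, 11.72 and 12.12 at CT7 and 8.34, 11.33 and 11.56 at CT13, against 9.06, 9.39 and 9.56 at CT7 and 9.21, 9.70 and 8.55 at CT13 in CON.

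Among the remaining members, Zim1, an imprinted zinc-finger gene, read 10.28, 10.16 and 9.81 at CT19 in MUT, against 8.57, 8.0 and 8.28 at CT19 in CON. At the other times its values lay between 8.23 and 9.39 in MUT and between 8.22 and 9.15 in CON, so the MUT mice at CT19 stood above all others. Rian, a noncoding RNA of the imprinted Dlk1-Dio3 region, and AF357425, a small nucleolar RNA of the same region, are neighbours. Their sizes were 0.67 and 0.90 in MUT and 0.31 and 0.44 in CON. Cldn22, a claudin of tight junctions, had 1.16 in MUT and 0.32 in CON and peaked at CT6.4 in MUT. Plxna4, a semaphorin receptor, had 0.73 in MUT and 0.23 in CON.

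Rgs7bp, which anchors regulators of G-protein signalling at the membrane, read 9.65, 9.35 and 9.46 at CT7 and 8.38, 8.57 and 9.22 at CT19 in MUT, against 8.81, 8.70 and 8.66 at CT7 and 8.87, 9.01 and 9.22 at CT19 in CON. It peaked at CT5.2 in MUT and at CT16.9 in CON, so the genotypes ran in opposite phase. Emp1, a membrane protein of epithelia, had sizes of 0.70 in MUT and 0.17 in CON with an SD between mice of 0.47. D830024N08Rik, with no RefSeq match, had 0.60 in MUT and 0.19 in CON. Over all members the peak times of the genotypes lay within 3 h of each other for 37 and over 9 h apart for 16. In a small rhythm the peak time is poorly determined, so these shifts are a description.

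**Figure D3:**
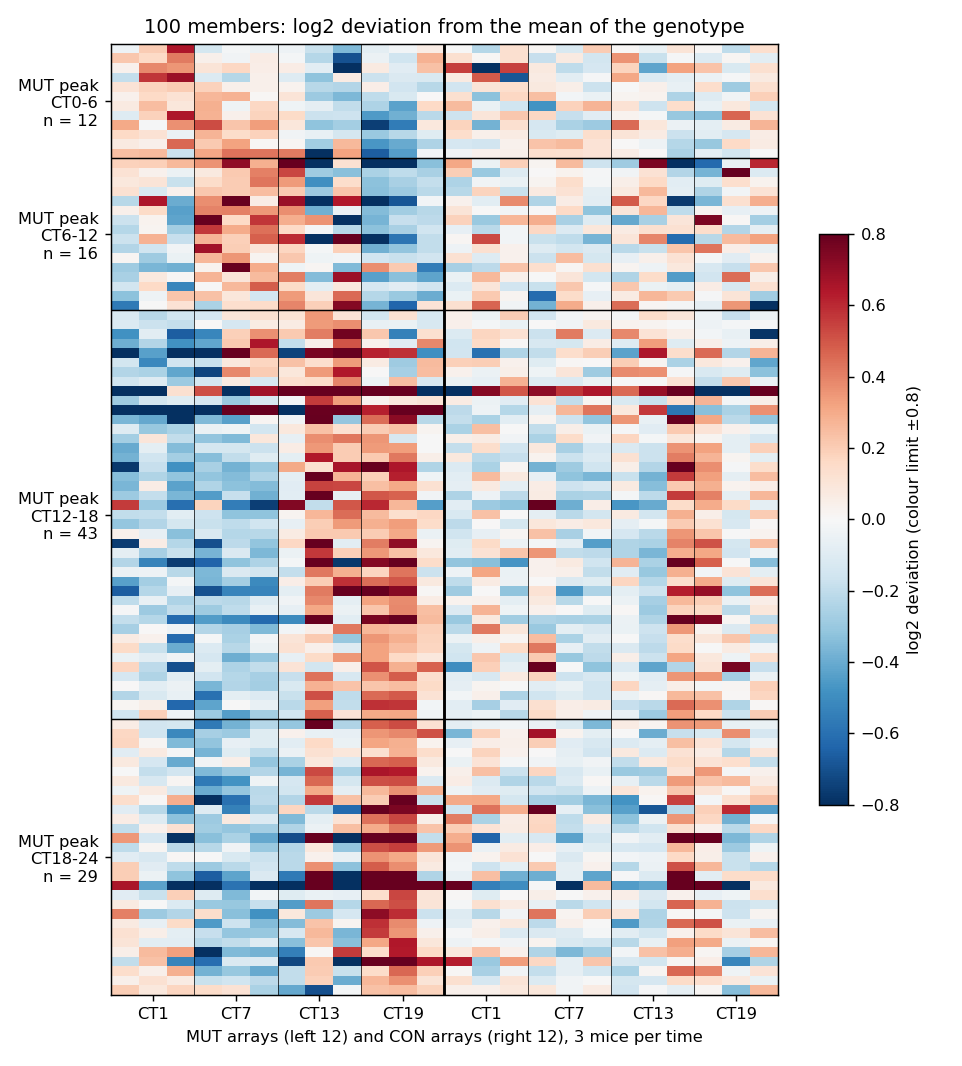
Log2 deviation of the 100 members from their mean in each genotype, members ordered down the page by MUT peak time with lines every 6 h of peak time, and the 12 MUT arrays left of the 12 CON arrays. Members peaking at CT12 to CT24 are high at CT19 in MUT, and the second MUT mouse and the third CON mouse at CT13 carry the same pattern of colours.

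The spread between mice was wide for the members. The SD within groups had a median of 0.22 for the members and 0.10 for all genes, 98 of the members lay above the all-gene median, 81 above the 90th percentile and 26 in the top 1%. The SD was larger in MUT than in CON for 61 members, against 52.6% of all genes. Only 25 members differed between genotypes by more than 2 standard errors of the difference in size, and 15 had a MUT size of 1 or more. Both counts rest on the sizes that chose the members and were not made over all genes, so they are a description. The smallest SD relative to the MUT size was 0.18, for Gm6958 and Prr13, followed by Plek and Nrbp2 at 0.20; the largest were Igkv5-43 at 0.75, Mir328 at 0.71, Emp1 at 0.68 and Itih4 at 0.65. Igkv5-43 is an immunoglobulin gene segment and Itih4 a serum protein gene.

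**Figure D4:**
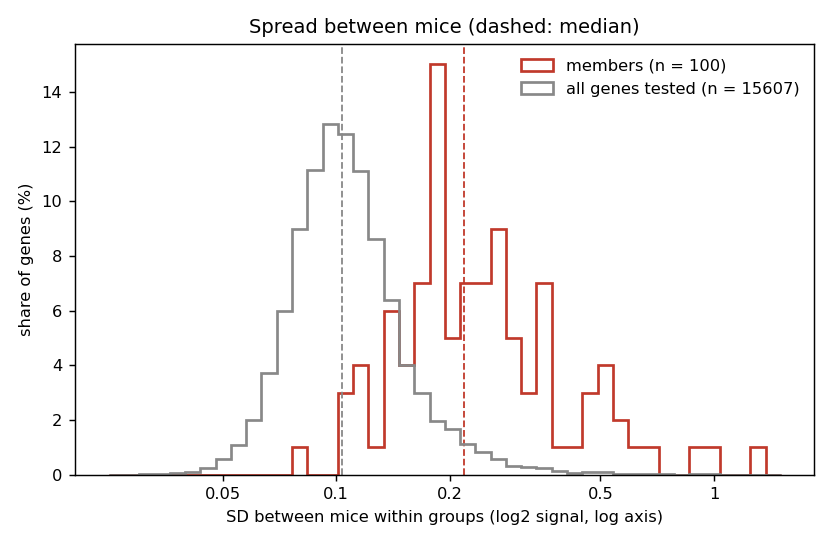
Share of genes (%) by SD between mice within groups (log2 signal, logarithmic axis) for the 100 members and for all 15607 genes tested, medians dashed. The members' median of 0.22 lies right of the all-gene median of 0.10.

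Genes chosen as extremes move back toward the rest when measured again, which is regression to the mean. To measure it, the choice was repeated from 2 replicates of each group, and the sizes of the 100 genes chosen were measured in the replicate left out, along the peak time of the replicates used. The median difference of MUT minus CON was 0.46, 0.46 and 0.51 in the replicates used and 0.19, -0.01 and 0.04 in replicates 1, 2 and 3 when each was left out. In those left out, 68, 48 and 56 of the 100 genes had the larger size in MUT, whereas over all genes 39.4%, 39.2% and 34.5% did, with median differences of -0.07, -0.06 and -0.09. A size in the replicate left out is signed: it is below 0 where the signal ran against the peak time of the replicates used, and a CON value below 0 widens the difference. In CON 26, 30 and 32 of the 100 were below 0. The MUT size exceeded the CON size regardless of its sign in 58, 37 and 41 of the 100, where over all genes 27.7%, 29.0% and 24.7% did. Averaged over the rounds, a median difference of 0.07 ± 0.11 (SD over 3 rounds) was left of 0.47, or 15.4%. The 100 genes with the largest CON minus MUT size, chosen the same way, kept 75.6% of theirs: -0.73 in the replicates used and -0.55 in those left out.

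The MUT size itself shrank as well. Its median was 0.63, 0.68 and 0.79 in the replicates used and 0.38, 0.13 and 0.25 in those left out. The 3 rounds chose 231 different genes, of which 145 were not members. Of the members, 14 were chosen in all 3 rounds, 37 in 2, 35 in 1 and 14 in none. These values are given with no test, since the rounds share arrays and the genes share their variation between mice.

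**Figure D5:**
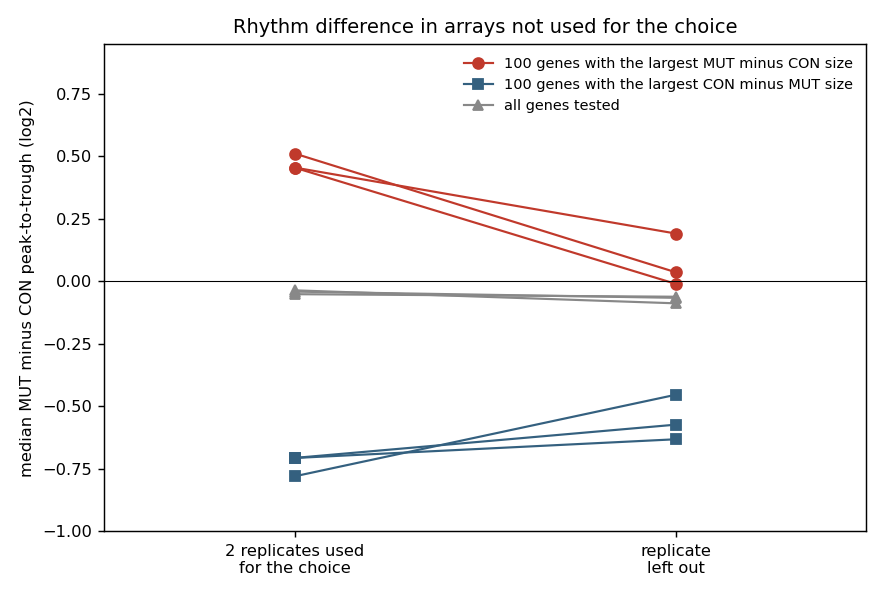
Median MUT minus CON peak-to-trough (log2) in the 2 replicates that chose the genes and in the replicate left out, 1 line per round, for the 100 genes largest in MUT (circles), the 100 largest in CON (squares) and all genes (triangles). The circles end at 0.19, -0.01 and 0.04 and the squares at -0.57, -0.45 and -0.63.

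The 14 members chosen in every round were Thbs1, Mir328, C7, Zim1, Prg4, Alox15, Prodh, Cd180, Cyp2e1, Cpa3, Ly96, Plxna4, Snord104 and Gdpd3. For Alox15 the size in the replicate left out was 0.94, 0.90 and 0.81 in MUT and 0.10, -0.21 and 0.24 in CON. For Cd180 it was 0.52, 0.77 and 0.93 in MUT and 0.16, -0.17 and -0.01 in CON. For Prodh it was 0.70, 0.34 and 0.50 in MUT and 0.00, -0.33 and -0.32 in CON, so in CON it ran against its earlier phase in 2 replicates. For Thbs1 it was 1.80, 1.34 and 2.15 in MUT and -1.62, -0.24 and -1.68 in CON. The CON replicates of Thbs1 thus swung nearly as far as the MUT replicates in 2 of 3 rounds but in no steady phase, and their differences of 3.42, 1.58 and 3.83 exceed what the MUT size alone gives. The differences of these 4 kept their direction in every replicate left out, as did Zim1, Prg4, Cpa3, Plxna4 and Snord104, while Ly96 and Cyp2e1 each turned to -0.05 in 1 of them. Mir328 gave differences of -1.57, 0.40 and 1.26, C7 1.38, -0.21 and 0.97, and Gdpd3 0.11, -1.10 and -0.68, so their direction depended on the mice. Each replicate helped choose these genes in 2 of the 3 rounds, so the values describe evenness between mice and do not test it.

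The mean level over the day was tested because its contrast is orthogonal to the cosine and sine that chose the members. It uses the same arrays, and a gene raised at a single time in MUT, such as Zim1 at CT19, has both a larger cosine and a higher mean. By limma's moderated test with Benjamini-Hochberg adjustment over all genes, 25 members were higher and 6 lower in MUT, where over all genes 12.2% were higher and 9.48% lower, or 21.7% in either direction. The set of 100 genes with the larger rhythm in CON gave 25 higher and 4 lower, and the difference between the sets was not tested. With every array shifted to the same median, 34 members were higher and 5 lower, and over all genes 3810 were higher and 542 lower, against 1904 and 1479 as deposited, so the balance of directions over all genes rests on the scaling. The median difference of MUT minus CON was 0.12 for the members and 0.00 for all genes (0.17 and 0.05 after that shift).

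The direction of the calls varied with the phase among the members and among all genes. Of the 29 members peaking at CT18 to CT24 in MUT, 17 were called higher and none lower, and 28 of 29 estimates were above 0; of the 43 peaking at CT12 to CT18, 8 were higher and none lower. Of the 28 members peaking earlier, none was higher and 6 were lower. Over all genes 22.7% of those peaking at CT18 to CT24 in MUT were higher and 2.74% lower, and 16.5% and 5.82% of those peaking at CT12 to CT18. For CT0 to CT6 the shares were 3.75% higher and 13.7% lower, and for CT6 to CT12 they were 3.21% and 17.8%. The mesothelial markers shared some of their highest arrays with the members peaking at CT18 to CT24. Of these 10 markers, 5 were called higher and none lower. Their median was 0.32.

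Members with a higher daily mean included 2-level signals, genes raised most at CT19, such as Zim1 and Gbp4, and genes such as Zdhhc2 with a higher mean at every time. Mir328 averaged 10.53 in MUT and 9.13 in CON, 2.64-fold higher (log2 difference 1.40 ± 0.33, limma SE; limma adjusted p = 0.0073), and Gm6625, annotated as a pseudogene, 10.70 in MUT and 9.42 in CON, 2.42-fold higher (1.27 ± 0.23; limma adjusted p = 0.0026). In both, MUT mice covered a far wider range than CON mice. Zim1 averaged 9.16 in MUT and 8.52 in CON, 1.55-fold higher (0.63 ± 0.12; limma adjusted p = 0.0035). Prg4, AF357425 and Gbp4 were 1.39-fold, 1.37-fold and 1.31-fold higher; the Gbp4 call was lost under trended and robust variance and when any 1 of 9 arrays was left out. Zdhhc2, a palmitoyltransferase, was 1.33-fold higher (0.42 ± 0.07; limma adjusted p = 0.0016), with 8.62, 8.94 and 8.67 at CT19 in MUT and 8.46, 8.03 and 8.17 at CT19 in CON. Fbln5 was 1.25-fold higher.

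The 6 members with a lower daily mean were Man2a2, Mir122, Cyp2e1, Fmo1, Traf4 and Glul. Man2a2, an alpha-mannosidase of N-glycan processing in the Golgi, averaged 10.55 in MUT and 11.10 in CON, with a log2 difference of -0.55 ± 0.10 (limma adjusted p = 0.0032). It was high in 2 MUT mice at CT1 (11.12 and 11.24), and the other 10 MUT mice read between 10.23 and 10.61, whereas 11 of 12 CON mice read between 10.99 and 11.59 and the other 10.41. Fmo1 fell by 0.29, Cyp2e1 by 0.38 and Glul by 0.22 on the log2 scale. The Traf4 call, a signalling adaptor gene that fell by 0.28, was lost after the shift to the same median, under trended and robust variance and when any 1 of 11 arrays was left out. The Cyp2e1 call was lost under quantile normalization, under trended and robust variance and when any 1 of 4 arrays was left out, and the Glul call with the mean of its probe sets. Of all 31 calls, 18 held under every alternative and every omission of an array that was run. Without both CT13 mice of the largest shared deviation, 28 members were higher and 9 lower, beside 13.5% and 9.28% of all genes.

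The second measure orthogonal to the cosine was the 12-h alternation, the mean of CT1 and CT13 minus that of CT7 and CT19. No member passed limma's test in MUT, in CON or for their difference, where 0.0449%, 0.0256% and 0.0449% of all genes did. At an unadjusted p under 0.05, limma gave 10, 4 and 4 members, against 1148, 1039 and 1117 of all 15607 genes. Without the second MUT mouse at CT13, Zim1 alone passed in MUT (limma adjusted p = 0.035).

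The 24-h rhythm itself was used by the rule, so its calls are a description. In MUT 11 members were called by limma, beside 0.346% of all genes: Alox15, Cd180, Laptm5, Plek, Cyba, Jade3, Nrbp2, Ndufa11, Gm6958, Pln and Prr13. None was called in CON, beside 16.9% of all genes. Rgs7bp and Ndufa11 were called for the difference between genotypes, beside 1.42% of all genes. The mice of the highest time lay wholly above those of the lowest time in 82 members in MUT and in 28 in CON, beside 38.7% and 55.1% of all genes. Without both CT13 mice of the largest shared deviation, 52 members were called in MUT, 2 in CON (Cybb and Prr13) and 8 for the difference. The shares of all genes called without these mice were not counted, so nothing is read from these counts.

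There were 6 further probe sets for 5 members. Of the 3 with a mean signal above the filter of 7.4, Selplg, the leukocyte ligand of P-selectin, had a difference of 0.08, Glul of -0.01 and Ndufa11 of -0.02 (MUT minus CON). The other 3 lay below the filter, at 6.84 for Emp1 with a difference of 0.53 and at 6.36 and 5.99 for Igkv5-43 with -0.26 and -0.58. For Igkv5-43, whose segments resemble each other, and for the paralogous GTPases, the array cannot fully separate near-identical copies.

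The rule left out Bhlhe41 by name, and no other clock gene was a member. Of 4 clock activators, 10 repressors and 6 outputs tested, none was a member, although 1 activator and 2 repressors had the larger size in MUT. Of 17 glucocorticoid targets tested, 7 had the larger size in MUT and none was a member, Zbtb16 and Pdk4 having been left out by the rule. The members also held none of 10 adipocyte markers, whose median size was 0.10 in MUT and 0.13 in CON.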

How the data were processed

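The deposited values are log2 signals per probe set, made by the authors with RMA and Affymetrix Expression Console per the submitters' processing notes; its settings, versions and genome build were not given in the sources used. RMA normalizes arrays to each other, so a shift of the whole transcriptome would be reduced. Of 34390 probe sets, 23521 carry 1 symbol, 1814 several and 9055 none; 193 single symbols found no match in the RefSeq GRCm38.p6 table. The brightest single-symbol probe set of each of 22180 genes was kept, and the 15607 with a mean of at least 7.4 were tested.

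With limma 3.58.1 (R 4.3.3) a model of 8 group means, leaving 16 residual degrees of freedom, was fitted over the 24 arrays. Tests were two-sided, Benjamini-Hochberg adjusted, threshold 0.05. In simulated data, with genes varying independently, 200 genes were changed. Rhythms of 1.5-fold were recovered in 88% (MUT), 78.5% (CON) and 54.5% (difference), and of 1.2-fold in 2%, 0% and 0%. For the alternation these were 98%, 98.5% and 92%, and 56.5%, 66% and 15%. For the daily mean they were 97.5% and 89.5%. Figures used Python 3.11.15 and matplotlib 3.10.9. Replicate numbers are the letters of the titles, which were not found to pair mice. No source says that groups came from separate litters or batches, and p-values measure only the spread between these mice.

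Members, lists, role groups and the rule for named genes were chosen with earlier results of these data known. Named are the 12 largest differences, genes at the limit, the largest calls, list members, the extremes of relative spread, genes chosen in every round and the largest sizes in each 6 h of peak time. Role groups, the GTPase family and its promoters fall outside that rule and were picked after values were seen. Marker lists of other cell types and tissues gave no further member beyond those named.

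Alternatives were quantile normalization, a shift of arrays to the same median, no signal filter, a filter at 8, averaging all probe sets per gene, array weights, trended and robust variance, a replicate block, and omission of each array and of 2 arrays.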

Additional observations from a re-analysis of the deposited data

How the results depend on the processing

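Precision was limited by 3 arrays per group. Array weights gave 10 members with a lower daily mean, beside 13.3% of all genes. They gave 12, 8 and 13 genes called for the 12-h alternation in MUT, in CON and for their difference. For the 24-h rhythm in MUT and for its difference they called 58 and 11 members. Under the alternatives the shares of all genes called for the rhythm were not counted, so members' rhythm counts here have no background. Quantile normalization gave 1120 genes with a higher and 837 with a lower daily mean and called 1 member for the rhythm in CON. The shift to the same median gave 3810 higher and 542 lower, and a filter at 8 left 875 lower. Trended and robust variance gave 2 genes for the alternation in CON and 1 member for the rhythm difference, and averaging all probe sets per gene also gave 1 member for the rhythm difference. Without a filter 7 members were called for the rhythm in MUT. With the replicate block, 24 members were higher, beside 11.6% of all genes, and 7 were called for the rhythm in MUT. The replicate numbers did not pair mice (median correlation of deviations -0.015 for the same number and 0.004 for other numbers).

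Without both CT13 mice of the largest shared deviation, an alternative chosen after seeing the data, the alternation gave 1 member (Zim1) and 11 genes in MUT, 10 genes in CON and 14 for the difference, the rhythm gave 52, 2 and 8 members in MUT, in CON and for the difference, and 64 members were chosen again. Leaving out each array in turn gave 16 to 31 members higher and 4 to 11 lower, 1273 to 2388 genes higher and 868 to 1776 lower. The alternation ran over 1 to 9 genes in MUT, 2 to 8 in CON and 7 to 24 for the difference, with 0 to 1 members in MUT. The rhythm ran over 5 to 27 members in MUT, 0 to 1 in CON and 0 to 7 for the difference, and 72 to 89 members were chosen again. The cause of these changes was not tested. The measure in replicates left out was not run without both CT13 mice.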
